A study of Mus musculus with 30 samples.

Results

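The genes described here handle cholesterol in the cell: 17 enzymes of its synthesis, 5 genes of the sterol-sensing system, 3 genes of lipoprotein uptake, 2 that store or oxidise it, 3 that move it inside the cell, and 5 of its export. They were chosen by name from these functions and mapped from the Ensembl identifiers of the deposited count files, which gave 35 genes of 43629. All 35 passed the filter on low counts on every day, so that each one was tested. Heart RNA was sequenced from C57BL/6J wild-type mice at 2, 4 and 7 days after myocardial infarction (MI), in which the chest was opened, the pericardium removed and a coronary artery ligated under isoflurane. Sham mice had the same operation without the ligation, so that both groups carry the effects of anaesthesia and surgery. Each operation has 5 libraries at each day, 30 in all. The labels name heart as the tissue without saying which region was taken, and they name replicates as separate samples without saying more, so that the p-values speak of the spread between these samples alone, which may be technical. No age of the mice is given in the sources used here.

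Cells make cholesterol from acetyl-CoA through mevalonate, isoprenoid units, squalene and lanosterol. When membrane sterol is low, the SCAP protein escorts SREBP transcription factors out of the endoplasmic reticulum and genes of synthesis and uptake are switched on, while INSIG proteins hold the complex back when sterol is plentiful. Surplus cholesterol is esterified for storage or exported by ABC transporters to apolipoproteins, and oxysterols activate the liver X receptors, which raise the export genes. In the infarcted heart, macrophages that engulf dead cells take on their cholesterol.

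Library totals ran from 7841930 to 14070017 counts, and 18668 to 20905 genes had at least 1 count. Levels are CPM, the counts of a gene scaled to a common library total, and values of a group are listed by replicate number, which has no order. A count of 0 allows up to 3 counts, which is 0.213 to 0.383 CPM depending on the library and covers counting error only. Fold changes come from edgeR's quasi-likelihood test with TMM factors, are given as log2 values ± their standard error, and passed the test where the p adjusted by Benjamini-Hochberg over every gene tested was under 0.05. These factors set the MI libraries apart from the sham libraries by 0.093, 0.18 and 0.20 on the log2 scale at days 2, 4 and 7, so that a ratio of mean CPM lies above the fitted fold by about that much. The summed CPM of 8 macrophage markers was 456 to 922 in the sham libraries, 676 to 1295 in MI at day 2, 1797 to 2232 at day 4 and 1326 to 2718 at day 7. The summed CPM of 6 cardiomyocyte markers was 44403 to 58322 in sham and 28734 to 38771 in MI. Lung epithelial transcripts, Sftpc and Scgb1a1 together, reached 168 to 1642 CPM in 6 libraries and no more than 24.0 CPM in the others. Those 6 were sham replicates 2 and 3 of day 4, sham replicates 1, 2 and 3 of day 7 and MI replicate 2 of day 7, and results that differ without them are given both ways. They are the ones called libraries with lung transcripts below. Of the MI libraries kept at day 7, replicates 3, 4 and 5 still held 10.7 to 24.0 CPM, and replicate 1 held none. The kept sham replicates 4 and 5 held 0.126 and 0.128 CPM. Day 7 values without the 6 are thus not free of lung transcripts on the MI side. The description labels of the 10 libraries of day 2 hold the number 660081, and those of the 20 of days 4 and 7 hold 710477. Run code is the name used here for this number. Differences between day 2 and later days cannot be told apart from differences between run codes, while MI and sham of a day share a code.

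At day 2, 11 of the 35 genes were higher in MI than in sham, 5 were lower and 19 did not pass the test. At day 4 the counts were 12 higher and 6 lower with 17 not past the threshold, and at day 7 they were 11, 5 and 19. Over all genes tested, 46.3%, 52.7% and 55.0% were called at the 3 days, and 24.1%, 27.5% and 28.4% of all genes tested were higher and 22.2%, 25.2% and 26.6% lower. With both directions summed, the share of cholesterol genes called was near or below the background on every day. By direction, the share higher was near or above the background and the share lower below it on each day. These differences were not tested, and the members were chosen with earlier results of these data known. The CPM of the MI and sham libraries did not overlap for 6, 14 and 13 of the 35 genes, against 30.6%, 39.3% and 41.5% of all genes tested. The median log2 fold change of the 35 genes was 0.11, 0.18 and 0.10, and that of all genes was -0.0051, 0.0061 and 0.012. In whole heart tissue, a change in the number of cells of a type and a change in RNA per cell cannot be told apart. Scaled by library totals in place of TMM factors, 7 of the lower calls were no longer past the threshold: Srebf1 at day 2 (-0.23), Pmvk (-0.28), Sc5d (-0.26) and Mylip (-0.22) at day 4, and Sc5d (-0.22), Insig2 (-0.18) and Nr1h3 (-0.33) at day 7. The same scaling added 10 higher calls: Abcg1 at day 2 (0.50), Mvk (0.39), Mvd (0.45), Cyp51 (0.37) and Ebp (0.44) at day 4, and Mvd (0.42), Ebp (0.49), Srebf2 (0.42), Mylip (0.30) and Npc1 (0.48) at day 7. In 1 fit of all 30 libraries the day 2 calls of Lss, Srebf1 and Npc2 were lost (adjusted p = 0.17, 0.089 and 0.089). That fit added 4 calls: Insig1 at day 4 (-0.44, adjusted p = 0.0349) and, at day 7, Ebp (0.30, adjusted p = 0.039), Srebf2 (0.24, adjusted p = 0.0365) and Nr1h2 (-0.16, adjusted p = 0.0451).

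**Figure D1:**
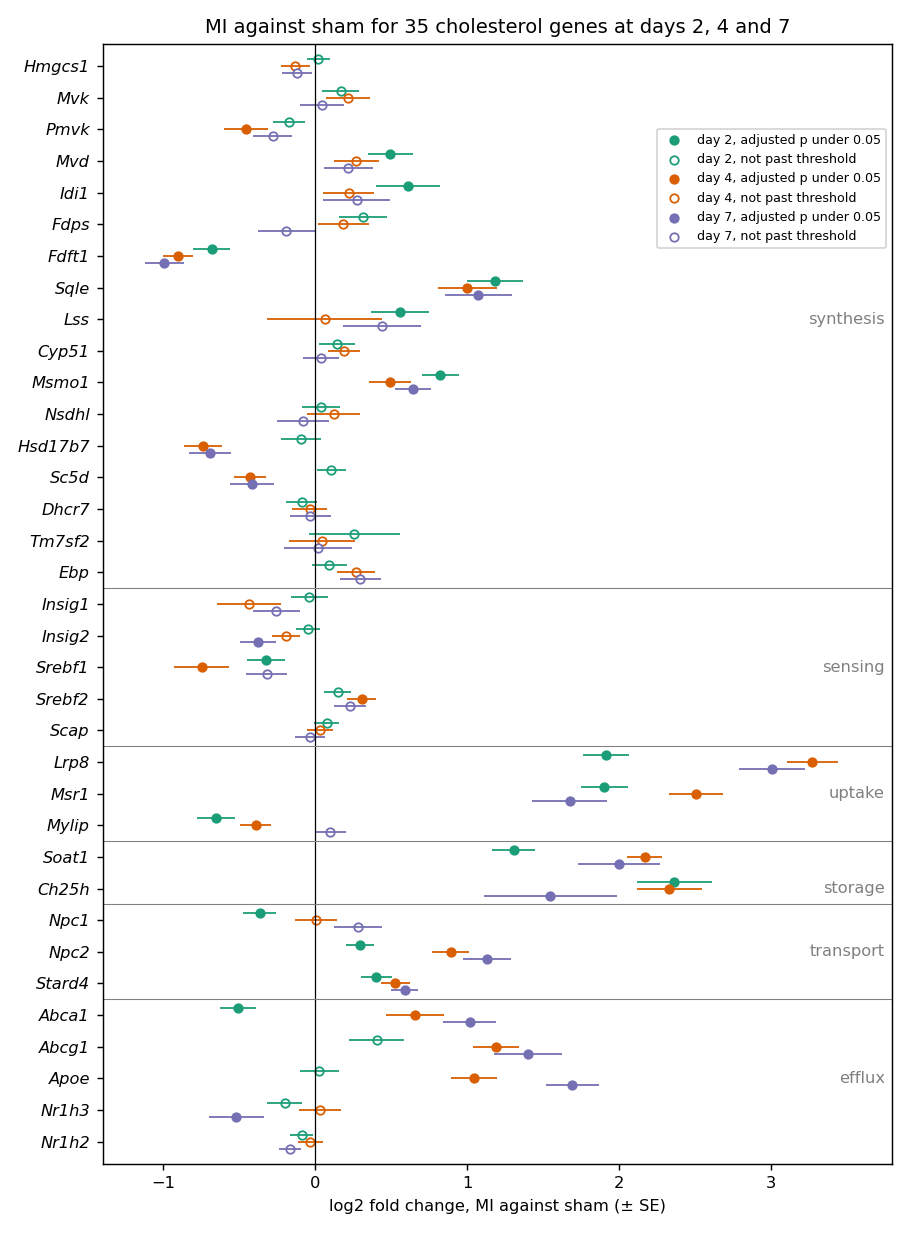
Fold change of each gene in MI against sham. The x axis is the log2 fold change with its standard error (5 libraries per group), rows are the 35 genes by function, colours are the days, and filled points passed the adjusted p threshold of 0.05; the largest values belong to Lrp8, Msr1, Soat1 and Ch25h, and Fdft1 lies below 0 on all 3 days.

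The synthesis genes called went in both directions, and a smaller share of them was called than of all genes. Of the 17 enzymes, 5 were higher and 1 lower at day 2, 2 were higher and 4 lower at day 4, and 2 were higher and 3 lower at day 7, against 46.3%, 52.7% and 55.0% of all genes called in either direction. The median log2 fold change of the 17 was 0.14, 0.12 and 0.018. Sqle and Msmo1 were higher and Fdft1 was lower on each of the 3 days, and these enzymes act near each other along the route. Mvd, Idi1 and Lss were higher at day 2, and Pmvk, Hsd17b7 and Sc5d were lower at day 4.

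Promoter sequences of 5 synthesis genes follow, to show the letters that lie before genes of 1 pathway that moved in different directions. Hmgcs1 did not pass the test on any day, Mvd and Lss were higher at day 2, and Hsd17b7 and Sc5d were lower at days 4 and 7. The sequences come from RefSeq on GRCm38.p6, read 5′ to 3′ on the strand of the gene, and hold the 250 bases before the RefSeq start, cut short where the GRCm38 annotation places an earlier transcript start. Capitals mark the sterol regulatory element TCACNCCAC, to which SREBP factors can bind, and the CCAAT box, to which the factor NF-Y can bind, each on either strand, so that a CCAAT box on the other strand reads ATTGG. The windows are chr13:119690101-119690350 on the plus strand for Hmgcs1, chr8:122443423-122443672 on the minus strand for Mvd, chr10:76531355-76531587 on the plus strand for Lss, chr1:169969242-169969455 on the minus strand for Hsd17b7 and chr9:42264301-42264550 on the minus strand for Sc5d.
Hmgcs1: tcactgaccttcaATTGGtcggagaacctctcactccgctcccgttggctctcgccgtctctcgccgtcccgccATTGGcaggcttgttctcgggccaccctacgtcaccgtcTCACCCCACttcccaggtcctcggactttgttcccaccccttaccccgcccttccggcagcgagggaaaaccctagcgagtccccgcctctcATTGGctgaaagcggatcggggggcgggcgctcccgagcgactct
Mvd: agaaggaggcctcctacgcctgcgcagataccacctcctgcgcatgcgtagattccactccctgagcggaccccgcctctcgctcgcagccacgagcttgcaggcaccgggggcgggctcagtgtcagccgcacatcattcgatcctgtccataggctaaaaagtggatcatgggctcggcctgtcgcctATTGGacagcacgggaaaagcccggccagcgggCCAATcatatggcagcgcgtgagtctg
Lss: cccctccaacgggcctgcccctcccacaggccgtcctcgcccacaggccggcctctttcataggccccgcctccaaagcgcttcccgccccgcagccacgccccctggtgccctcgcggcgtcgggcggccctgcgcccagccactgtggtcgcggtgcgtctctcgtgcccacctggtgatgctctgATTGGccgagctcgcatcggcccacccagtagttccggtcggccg
Hsd17b7: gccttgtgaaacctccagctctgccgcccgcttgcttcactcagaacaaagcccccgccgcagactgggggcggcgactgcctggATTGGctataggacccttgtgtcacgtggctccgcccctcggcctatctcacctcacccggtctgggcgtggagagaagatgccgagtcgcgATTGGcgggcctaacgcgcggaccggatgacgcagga
Sc5d: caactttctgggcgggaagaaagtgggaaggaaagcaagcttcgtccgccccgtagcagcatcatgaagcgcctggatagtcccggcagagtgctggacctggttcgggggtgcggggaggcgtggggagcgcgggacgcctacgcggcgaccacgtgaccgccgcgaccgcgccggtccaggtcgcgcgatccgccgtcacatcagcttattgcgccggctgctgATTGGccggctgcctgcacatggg

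RefSeq promoter entries matched 28 of the 35 genes. A gene was counted where any of its entries held the motif. The 28 members had 41 entries and all 27025 genes had 32851, so that members had more windows per gene in which to match. A CCAAT box lay in the 250 upstream bases of 21 of these 28 (75.0%). The share was 40.1% of 10422 tested genes with an entry and 37.5% of all 27025 genes with an entry. The sterol element in this spelling lay before 1 of the 28, Hmgcs1, and before 1.22% of all genes with an entry. The E-box CACGTG lay before 6 members (21.4%), 9.9% of tested genes and 6.86% of all genes with an entry. The GC box GGGCGG lay before 21 members (75.0%), 62.9% of tested genes and 35.4% of all genes with an entry. The direct repeat of the liver X receptor, DR4, lay before none of the 28 in the exact spellings searched. The main spelling lay before 0.02% of all entries. Looser forms of this repeat were not searched, so that one may still lie before a member. Both strands were read, no motif holds another one whole, and a match is a description of letters in this window. The genes with a CCAAT box include ones that were higher, lower and not past the threshold, as the printed windows show.

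Sqle, squalene epoxidase, opens the oxygen-dependent steps of synthesis (chr15:59315077-59331192, plus strand). At day 2 Sqle was 3.73, 3.58, 2.82, 2.94 and 2.29 CPM in the sham libraries and 10.6, 7.64, 5.73, 7.46 and 5.87 CPM in the MI libraries. At day 4 Sqle was 3.60, 5.05, 7.07, 4.02 and 3.44 CPM in the sham libraries and 10.2, 9.03, 10.7, 8.43 and 13.8 CPM in the MI libraries. At day 7 Sqle was 4.30, 6.503, 4.40, 3.39 and 2.81 CPM in the sham libraries and 8.53, 10.9, 12.1, 12.9 and 7.01 CPM in the MI libraries. On each day every MI library lay above every sham library. The log2 fold change was 1.18 ± 0.18 at day 2 (2.27-fold, adjusted p = 0.000119), 1.001 ± 0.19 at day 4 (2.002-fold, adjusted p = 0.000506) and 1.07 ± 0.22 at day 7 (2.10-fold, adjusted p = 0.00104).

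Msmo1, which removes methyl groups from sterol intermediates, was also higher without overlap on each day (chr8:64718139-64733792, minus strand). At day 2 Msmo1 was 13.1, 12.6, 12.0, 8.96 and 8.64 CPM in the sham libraries and 23.5, 20.6, 21.1, 20.8 and 18.6 CPM in the MI libraries. At day 4 Msmo1 was 8.48, 11.6, 13.1, 10.4 and 8.44 CPM in the sham libraries and 15.7, 13.8, 15.6, 19.2 and 18.2 CPM in the MI libraries, and the lowest MI library was just above the highest sham library. At day 7 Msmo1 was 10.4, 8.75, 11.1, 10.2 and 9.18 CPM in the sham libraries and 20.5, 17.7, 16.9, 18.3 and 15.6 CPM in the MI libraries. The log2 fold changes were 0.82 ± 0.12, 0.49 ± 0.14 and 0.65 ± 0.12, with adjusted p = 6.52e-05, 0.00724 and 0.000466.

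Fdft1, squalene synthase, commits isoprenoids to sterols and makes the substrate of Sqle (chr14:63145150-63179578, minus strand). At day 2 Fdft1 was 32.6, 36.3, 49.5, 41.9 and 39.5 CPM in the sham libraries and 25.7, 33.4, 26.3, 22.1 and 25.7 CPM in the MI libraries, and 1 MI library reached into the sham range. At day 4 Fdft1 was 51.1, 47.0, 41.2, 47.6 and 48.8 CPM in the sham libraries and 26.6, 31.6, 26.4, 32.0 and 26.2 CPM in the MI libraries. At day 7 Fdft1 was 44.0, 44.5, 52.0, 47.0 and 45.7 CPM in the sham libraries and 27.8, 29.3, 18.5, 27.7 and 31.1 CPM in the MI libraries, and at both later days every MI library lay below every sham library. The fold changes were 1.60-fold, 1.87-fold and 1.99-fold lower, log2 -0.68 ± 0.12, -0.90 ± 0.10 and -0.99 ± 0.13 (adjusted p = 0.000343, 3.77e-06 and 3.04e-05). Fdft1 shares 774 exon bases, 18.3% of its exons, with Ctsb on the opposite strand, a lysosomal protease gene that stood at 639 to 2212 CPM over the libraries and averaged 2000.3 CPM in MI against 809 CPM in sham at day 4. The strand setting of the counting (not given in the sources used here) bears on this stretch, and how reads of the shared stretch were assigned was not tested. A processed pseudogene, Gm6781, is 97.4% identical to Fdft1 over 1249 bases and averaged 1.12 to 6.47 CPM by group, and Fdft1 stayed lower in MI on each day when its counts were joined with those of the copy.

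**Figure D2:**
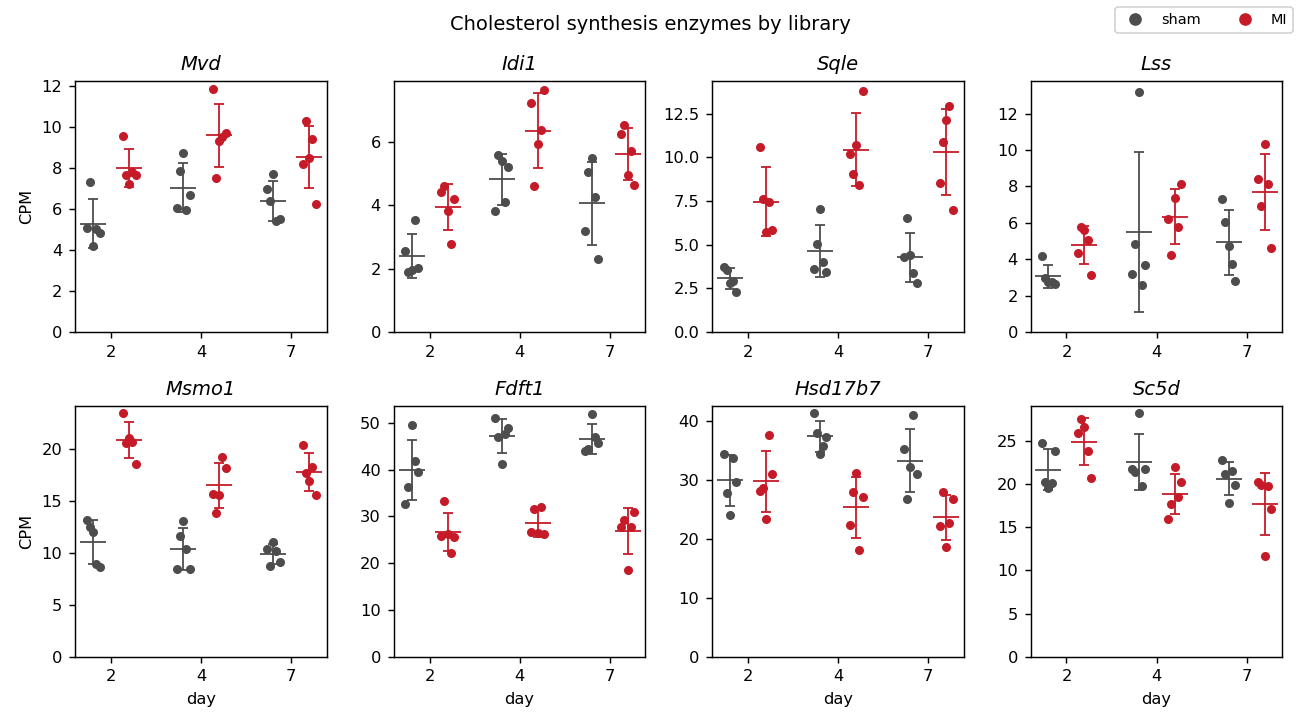
Levels of 8 synthesis enzymes in each library. The y axis is CPM from 0, points are the 30 libraries (grey sham, red MI, 5 per group), and bars are means ± SD; Sqle and Msmo1 in MI lie above sham on all 3 days, Fdft1 lies below sham at days 4 and 7, and 1 sham library of day 4 stands at 13.2 CPM of Lss.

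Mvd, which makes isopentenyl diphosphate, was 5.06, 7.30, 4.18, 5.02 and 4.85 CPM in the sham libraries and 9.57, 7.64, 7.21, 7.82 and 7.64 CPM in the MI libraries at day 2. One sham library reached into the MI range, and the log2 fold change was 0.50 ± 0.15 (adjusted p = 0.0124). At days 4 and 7 the Mvd values were 0.27 ± 0.15 and 0.22 ± 0.16 (adjusted p = 0.139 and 0.266), and the day 4 value was 0.42 without the libraries with lung transcripts (adjusted p = 0.0456).

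Idi1, which isomerises that product, was 2.58, 1.90, 1.964, 3.55 and 2.03 CPM in the sham libraries and 4.42, 4.60, 3.82, 2.77 and 4.19 CPM in the MI libraries at day 2, with 1 sham library inside the MI range. Its log2 fold change was 0.61 ± 0.21 (adjusted p = 0.0276). The call was lost in 6 of 10 fits that left out 1 library (sham replicates 2, 3 and 5 and MI replicates 1, 2 and 5), with values of 0.52 to 0.81 over the 10. At days 4 and 7 the values were 0.22 ± 0.17 and 0.27 ± 0.22, neither past the threshold. Gm13502, a processed pseudogene identical to Idi1 over 684 bases, averaged 2.90 to 6.65 CPM by group, about as much as Idi1 itself, so that the split of counts between them is uncertain. With both joined, the day 2 value was 0.55 (adjusted p = 0.0042) and that of day 7 was 0.50 (adjusted p = 0.016).

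Lss, lanosterol synthase, closes the sterol rings. At day 2 Lss was 4.17, 2.97, 2.73, 2.78 and 2.64 CPM in the sham libraries and 4.32, 5.77, 5.62, 5.05 and 3.17 CPM in the MI libraries. The log2 fold change was 0.56 ± 0.19 (adjusted p = 0.0248), and the call was lost without sham replicate 4 or 5 or without MI replicate 2, 3 or 4 (values of 0.48 to 0.69 over the 10 such fits). At day 4 Lss was 3.18, 4.84, 13.2, 2.61 and 3.66 CPM in the sham libraries and 6.22, 4.23, 7.34, 5.78 and 8.15 CPM in the MI libraries. The sham library at 13.2 CPM, replicate 3, was one of those with lung transcripts and had the highest summed fat-cell markers of the 30 libraries, 272 CPM. With it the day 4 log2 fold change was 0.061 ± 0.38 (adjusted p = 0.902), and without it 0.63 (adjusted p = 0.024). At day 7 Lss was 7.33, 6.05, 4.73, 3.77 and 2.81 CPM in the sham libraries and 8.41, 6.95, 10.3, 8.16 and 4.64 CPM in the MI libraries, which did not pass the test at 0.44 ± 0.25 (adjusted p = 0.159). Without the libraries with lung transcripts, Lss was higher in MI by 0.81 at day 4 and 1.01 at day 7 (adjusted p = 0.0089 and 0.0462).

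Hsd17b7, a reductase of the demethylation steps (chr1:169949535-169969241, minus strand), was 34.5, 27.8, 24.0, 33.8 and 29.7 CPM in the sham libraries and 28.2, 28.6, 23.4, 37.7 and 31.0 CPM in the MI libraries at day 2. The groups overlapped fully there (-0.093 ± 0.13, adjusted p = 0.585). At day 4 Hsd17b7 was 41.4, 37.9, 34.4, 35.8 and 37.3 CPM in the sham libraries and 22.3, 27.9, 31.2, 18.1 and 27.1 CPM in the MI libraries, with no overlap. At day 7 Hsd17b7 was 35.3, 26.7, 32.1, 41.1 and 31.0 CPM in the sham libraries and 22.2, 28.0, 18.6, 22.7 and 26.7 CPM in the MI libraries, with 1 sham library inside the MI range. It was 1.67-fold lower at day 4 and 1.61-fold lower at day 7, log2 -0.74 ± 0.13 and -0.69 ± 0.14 (adjusted p = 0.000194 and 0.000914).

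Sc5d, the desaturase of a late step, was 21.7, 21.4, 28.3, 19.8 and 21.8 CPM in the sham libraries and 16.02, 17.7, 22.03, 18.5 and 20.2 CPM in the MI libraries at day 4. Its log2 fold change was -0.43 ± 0.11 at day 4 and -0.41 ± 0.14 at day 7 (adjusted p = 0.00375 and 0.0259), after 0.11 ± 0.10 at day 2 (adjusted p = 0.386). The day 7 call was lost without sham replicate 1 (-0.38) or 4 (-0.40) and without the libraries with lung transcripts (-0.52, adjusted p = 0.0982). Pmvk, phosphomevalonate kinase, was lower at day 4 (log2 -0.45 ± 0.14, adjusted p = 0.0152), with 13.5 to 23.0 CPM in sham and 12.1 to 16.2 CPM in MI. Without the lung-marked libraries it was -0.23 (adjusted p = 0.163).

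The other 8 enzymes did not pass the test on any day. Hmgcs1, which makes HMG-CoA and had the highest level per kilobase of exon among the 17 enzymes in every group (13.7 to 15.2 CPM per kb in the MI groups, 13.0 to 14.7 in the sham groups), had log2 fold changes of 0.020 ± 0.075, -0.13 ± 0.10 and -0.12 ± 0.10. The day 7 value was -0.21 (adjusted p = 0.0484) without MI replicate 4, the library with the highest Hmgcs1 of its group, whose summed skeletal muscle markers were 774 CPM against at most 2.63 CPM in the other 29 and whose fat-cell markers, 146 CPM, were the highest of the MI libraries. For Cyp51, the lanosterol demethylase, they were 0.14 ± 0.12, 0.19 ± 0.11 and 0.039 ± 0.12. For Dhcr7, a late reductase of the route, they were -0.090 ± 0.10, -0.035 ± 0.12 and -0.033 ± 0.13. Mvk, Nsdhl and Tm7sf2 lay between -0.079 and 0.26 on the 3 days. Tm7sf2 shares 532 exon bases, 12.1% of its exons, with Vps51 on the same strand, which averaged 18.6 CPM over the libraries. How reads of that stretch were assigned was not tested. Ebp, the sterol isomerase, was 0.094, 0.27 and 0.30, and its CPM did not overlap between groups at days 4 and 7 (at most 16.02 and 15.1 CPM in sham and at least 16.5 and 15.2 CPM in MI). Its adjusted p was 0.0842 and 0.0779, and 0.0164 and 0.0347 without the libraries with lung transcripts. Fdps, farnesyl diphosphate synthase, was 0.31, 0.18 and -0.19, but its processed pseudogene Gm3571, 98.9% identical over 1062 bases, averaged 8.51 to 20.4 CPM by group and so held more counts than Fdps, which leaves its values uncertain. With its counts joined with those of its copies, Fdps kept its direction and stayed not past the threshold on each day. It also shares 1124 exon bases, 26.7% of its exons, with Gm43738 on the same strand, a gene absent from the deposited counts.

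Among the sterol-sensing genes, none was past the threshold in the same direction on all 3 days. Srebf1, which encodes a transcription factor for fatty acid and sterol genes, was 67.7, 76.2, 111, 64.3 and 46.4 CPM in the sham libraries and 44.3, 39.0, 58.0, 48.2 and 55.8 CPM in the MI libraries at day 4. The highest sham library there was replicate 3, and 4 of the 5 sham libraries lay above all MI libraries. The log2 fold change was -0.75 ± 0.18 (adjusted p = 0.00398), -0.48 without the libraries with lung transcripts. It was -0.32 ± 0.12 at day 2 (adjusted p = 0.0423), a call lost in 6 of 10 fits that left out 1 library (sham replicates 1, 2 and 4 and MI replicates 1, 3 and 5; -0.42 to -0.24), and -0.32 ± 0.14 at day 7 (adjusted p = 0.0618), a value past the threshold without sham replicate 4 or 5 or MI replicate 3 or 4.

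Srebf2, the factor that chiefly drives sterol synthesis genes, was 45.6, 42.5, 55.2, 43.4 and 46.1 CPM in the sham libraries and 61.5, 59.8, 69.6, 55.5 and 78.4 CPM in the MI libraries at day 4. No MI library reached down to the sham range, and the log2 fold change was 0.31 ± 0.10 (adjusted p = 0.0139). At days 2 and 7 it was 0.15 ± 0.089 and 0.23 ± 0.10 (adjusted p = 0.187 and 0.0766), and the day 7 value passed without sham replicate 2 or MI replicate 5. Insig2 was lower at day 7 (log2 -0.38 ± 0.12, adjusted p = 0.0146), with 74.7 to 91.6 CPM in sham and 55.5 to 84.8 CPM in MI, and not past the threshold without the libraries with lung transcripts (-0.38, adjusted p = 0.139). Insig1, itself a target of SREBP factors, was -0.038 ± 0.12, -0.44 ± 0.21 and -0.26 ± 0.15, none past the threshold, and -0.037 and 0.0038 at days 4 and 7 without those libraries. For Scap, the values were 0.076 ± 0.082, 0.030 ± 0.085 and -0.034 ± 0.10.

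Of the 35 genes, Lrp8 had the largest log2 fold changes at days 4 and 7. It encodes a receptor of the low-density lipoprotein receptor family that binds apolipoprotein E and reelin (chr4:107802261-107876840, plus strand). At day 2 Lrp8 was 8.17, 5.33, 5.04, 5.02 and 6.08 CPM in the sham libraries and 26.3, 28.5, 18.03, 20.8 and 25.2 CPM in the MI libraries. At day 4 Lrp8 was 2.12, 2.58, 2.47, 1.71 and 2.44 CPM in the sham libraries and 29.9, 17.4, 24.4, 24.1 and 28.2 CPM in the MI libraries. At day 7 Lrp8 was 2.01, 1.79, 1.98, 2.76 and 1.53 CPM in the sham libraries and 20.01, 16.7, 26.7, 15.2 and 14.2 CPM in the MI libraries. The lowest MI library stood well above the highest sham library on each day. The fold changes were 3.77-fold, 9.66-fold and 8.03-fold, log2 1.92 ± 0.15, 3.27 ± 0.17 and 3.01 ± 0.22 (adjusted p = 3.40e-07, 9.84e-09 and 7.19e-07). Of all genes tested, 6.16%, 9.94% and 12.2% were called and at least 2-fold higher at the 3 days.

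Msr1, a scavenger receptor of macrophages that takes up modified lipoproteins (chr8:39581685-39642673, minus strand), was 10.8, 17.6, 10.8, 11.7 and 12.7 CPM in the sham libraries and 56.3, 66.7, 54.4, 39.7 and 38.4 CPM in the MI libraries at day 2. At day 4 Msr1 was 8.90, 12.7, 16.7, 8.14 and 10.1 CPM in the sham libraries and 79.1, 57.1, 59.7, 88.8 and 76.8 CPM in the MI libraries. At day 7 Msr1 was 10.1, 15.1, 8.47, 9.55 and 11.1 CPM in the sham libraries and 50.01, 28.7, 60.1, 34.6 and 24.2 CPM in the MI libraries. Here too no library of MI overlapped sham, and the log2 fold changes were 1.90 ± 0.16, 2.51 ± 0.18 and 1.68 ± 0.25 (adjusted p = 6.12e-07, 1.61e-07 and 9.86e-05). Within MI, Msr1 was lower at day 7 than at day 4 (log2 -0.87 ± 0.20, adjusted p = 0.00598). Of the 8 macrophage markers, 5, 8 and 8 were higher in MI at days 2, 4 and 7, with median log2 fold changes of 0.61, 1.46 and 1.58. The neutrophil markers S100a8, S100a9, Csf3r and Cxcr2 were higher for 4 of 4, 4 of 4 and, with Cxcr2 not past the filter, 3 of 3 genes (medians 4.57, 3.68 and 4.90). Their summed CPM was 7.91 to 15.8 in sham and 172 to 628 in MI at day 2, 4.44 to 9.99 and 31.2 to 209.8 at day 4, and 1.91 to 7.96 and 15.3 to 251 at day 7. The part of either cell type in the values of Lrp8, Msr1 and the genes below was not tested.

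Mylip encodes a ubiquitin ligase that sends lipoprotein receptors to degradation and is a target of liver X receptors. At day 2 Mylip was 19.9, 31.3, 31.3, 28.0 and 27.4 CPM in the sham libraries and 18.7, 20.2, 22.1, 17.9 and 15.1 CPM in the MI libraries. At day 4 Mylip was 30.5, 29.3, 33.6, 23.2 and 28.3 CPM in the sham libraries and 26.4, 22.2, 21.8, 28.1 and 25.9 CPM in the MI libraries. At day 7 Mylip was 30.8, 26.3, 28.0, 28.5 and 24.5 CPM in the sham libraries and 33.8, 35.6, 37.9, 34.9 and 27.5 CPM in the MI libraries. The groups overlapped on each day. Mylip was lower in MI at days 2 and 4 (log2 -0.65 ± 0.13 and -0.39 ± 0.10, adjusted p = 0.000704 and 0.00427), and not past the threshold at day 7 (0.10 ± 0.10, adjusted p = 0.421). Within MI it was higher at day 7 than at day 4 by 0.44 ± 0.11 (adjusted p = 0.0106).

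Soat1 and Ch25h were higher in MI on each of the 3 days without overlap. Soat1 makes cholesteryl esters for storage in lipid droplets (chr1:156424525-156474331, minus strand). At day 2 Soat1 was 11.5, 11.8, 8.54, 7.88 and 7.93 CPM in the sham libraries and 28.3, 31.8, 20.8, 24.2 and 20.6 CPM in the MI libraries. At day 4 Soat1 was 11.5, 10.3, 13.2, 9.25 and 9.55 CPM in the sham libraries and 59.5, 44.7, 51.4, 51.3 and 66.4 CPM in the MI libraries. At day 7 Soat1 was 9.16, 17.9, 7.15, 7.66 and 7.65 CPM in the sham libraries and 40.5, 51.03, 60.0, 50.5 and 24.5 CPM in the MI libraries, where the highest sham library, replicate 2, was one with lung transcripts. The fold changes were 2.47-fold, 4.50-fold and 4.01-fold (log2 1.31 ± 0.14, 2.17 ± 0.12 and 2.003 ± 0.27; adjusted p = 4.80e-06, 1.13e-08 and 5.65e-05).

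Ch25h makes 25-hydroxycholesterol, an oxysterol that holds back SREBP processing and is induced in macrophages by interferon (chr19:34473778-34475164, minus strand). At day 2 Ch25h was 1.87, 3.12, 1.45, 0.695 and 1.94 CPM in the sham libraries and 12.0, 11.8, 9.34, 9.45 and 7.54 CPM in the MI libraries. At day 4 Ch25h was 2.75, 1.505, 2.59, 1.21 and 1.78 CPM in the sham libraries and 13.0, 8.84, 8.85, 12.7 and 12.5 CPM in the MI libraries. At day 7 Ch25h was 1.56, 2.13, 2.42, 0.628 and 0.128 CPM in the sham libraries and 4.43, 7.26, 3.63, 5.30 and 2.91 CPM in the MI libraries, where the lowest sham library held 1 count. The log2 fold changes were 2.36 ± 0.25, 2.33 ± 0.21 and 1.55 ± 0.44 (adjusted p = 3.61e-06, 7.15e-07 and 0.00896). The day 7 value was 3.14 without the libraries with lung transcripts (adjusted p = 0.00311), a fit of 2 sham and 4 MI libraries that keeps the sham library with 1 count. Within MI, Ch25h was lower at day 7 than at day 4 (log2 -1.25 ± 0.29, adjusted p = 0.00531).

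**Figure D3:**
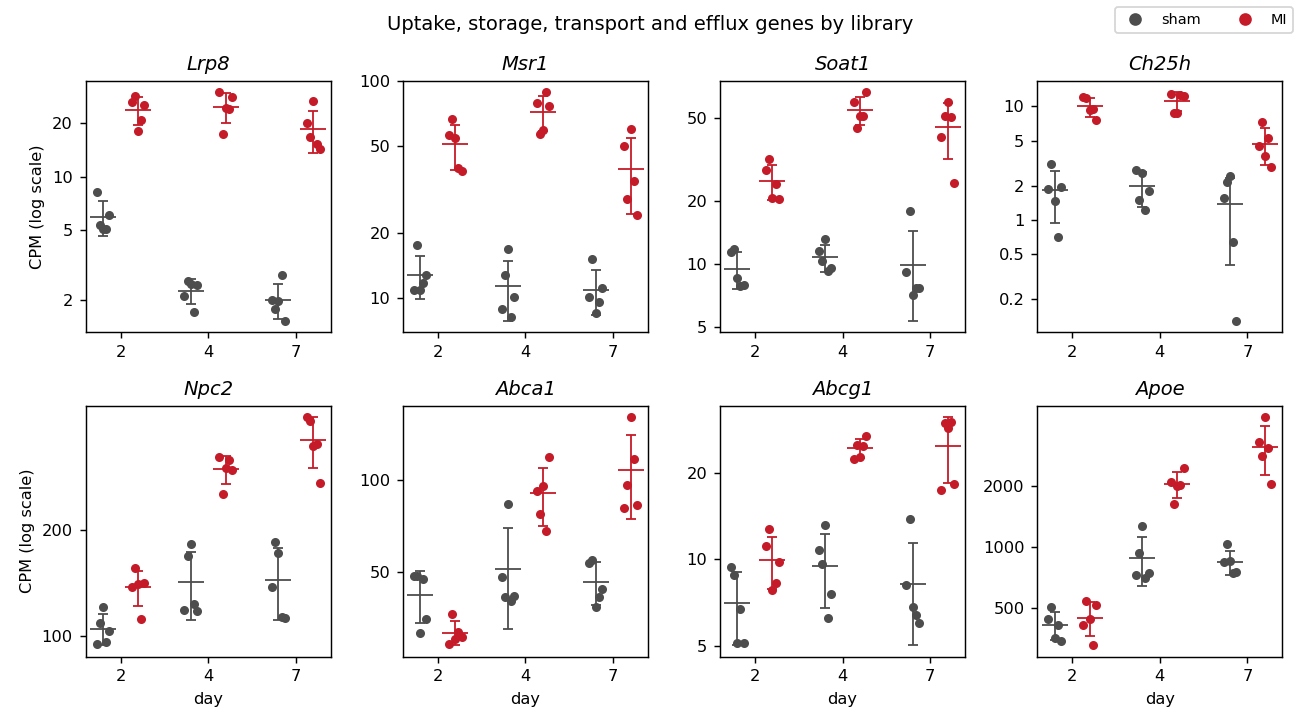
Levels of 8 genes of uptake, storage, transport and export in each library. The y axis is CPM on a log scale that differs between panels, points are libraries (grey sham, red MI, 5 per group), and bars are means ± SD; Lrp8, Msr1, Soat1 and Ch25h are separated at day 2, while Abca1 in MI lies mostly below sham at day 2 and above it at day 7.

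Of the transport genes, Npc2 and Stard4 were higher in MI on each day. Npc2, a soluble lysosomal protein that hands cholesterol to the membrane protein NPC1 (chr12:84754562-84773152, minus strand), was 94.7, 109, 121, 95.9 and 104 CPM in the sham libraries and 138, 156, 141, 112 and 142 CPM in the MI libraries at day 2. At day 4 Npc2 was 119, 169.6, 183, 123 and 118 CPM in the sham libraries and 323, 253, 301, 316 and 297 CPM in the MI libraries. At day 7 Npc2 was 138, 186, 173, 114 and 113 CPM in the sham libraries and 419.9, 411, 349, 353 and 272 CPM in the MI libraries. The groups overlapped at day 2 and were apart at days 4 and 7, with log2 fold changes of 0.30 ± 0.091, 0.89 ± 0.12 and 1.13 ± 0.16 (adjusted p = 0.0149, 2.99e-05 and 5.01e-05). In sham, the 2 highest libraries of day 4 and the 3 highest of day 7 were those with lung transcripts, and without all 6 the values were 1.11 and 1.37.

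Stard4, which carries cholesterol between membranes and is itself a target of SREBP factors, was 13.7 ± 1.23 CPM (SD, n = 5) in sham and 19.4 ± 2.54 CPM in MI at day 2, and 16.1 ± 1.503 CPM and 27.6 ± 1.72 CPM at day 7. Its log2 fold changes were 0.40 ± 0.10, 0.53 ± 0.10 and 0.59 ± 0.091 (adjusted p = 0.00546, 0.000313 and 0.000122), and the groups did not overlap at days 4 and 7. Npc1, the membrane partner of Npc2, was 49.1, 48.1, 38.8, 48.4 and 43.8 CPM in the sham libraries and 37.8, 36.9, 34.5, 47.3 and 31.8 CPM in the MI libraries at day 2. It was lower in MI at day 2 (log2 -0.37 ± 0.11, adjusted p = 0.0116), although 1 MI library lay near the top of the sham range. At days 4 and 7 it was 0.0068 ± 0.14 and 0.28 ± 0.16 (adjusted p = 0.971 and 0.146), neither past the threshold. Npc1 shares 511 exon bases with Rmc1 on the opposite strand.

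The 3 export genes Abca1, Abcg1 and Apoe had larger log2 fold changes at the later days. Abca1 passes cholesterol to lipid-poor apolipoproteins (chr4:53030787-53159895, minus strand). At day 2 Abca1 was 48.5, 48.3, 31.6, 47.3 and 34.99 CPM in the sham libraries and 29.01, 36.3, 30.2, 31.8 and 30.5 CPM in the MI libraries. At day 4 Abca1 was 48.2, 41.3, 83.3, 40.2 and 41.7 CPM in the sham libraries and 92.1, 77.2, 95.4, 67.7 and 118 CPM in the MI libraries, where the highest sham library was replicate 3. At day 7 Abca1 was 53.5, 54.7, 38.4, 41.5 and 43.9 CPM in the sham libraries and 80.9, 96.3, 160.1, 117 and 82.4 CPM in the MI libraries, with no overlap. Abca1 was lower in MI at day 2 (-0.51 ± 0.12, adjusted p = 0.00281) and higher at days 4 and 7 (0.66 ± 0.19 and 1.02 ± 0.18, adjusted p = 0.0125 and 0.000312), the one gene of the 35 that passed the test in opposite directions on different days. Scaled by library totals, Mylip and Npc1 did so too, lower at day 2 (-0.56 and -0.28) and higher at day 7 (0.30 and 0.48).

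Abcg1 passes cholesterol to larger lipoproteins (chr17:31057675-31117988, plus strand). At day 2 Abcg1 was 9.42, 8.82, 5.12, 6.72 and 5.11 CPM in the sham libraries and 11.1, 12.8, 7.85, 8.24 and 9.78 CPM in the MI libraries, not past the threshold (0.41 ± 0.18, adjusted p = 0.0778) but past it without sham replicate 1 (0.52) or 2 (0.49). At day 4 Abcg1 was 10.8, 9.67, 13.2, 6.23 and 7.55 CPM in the sham libraries and 22.3, 25.01, 22.8, 24.8 and 26.8 CPM in the MI libraries. At day 7 Abcg1 was 8.15, 13.8, 6.82, 6.41 and 5.99 CPM in the sham libraries and 17.4, 29.8, 28.6, 30.1 and 18.2 CPM in the MI libraries. The later groups did not overlap, and the fold changes were 2.28-fold and 2.64-fold (log2 1.19 ± 0.15 and 1.40 ± 0.23; adjusted p = 1.33e-05 and 0.000184).

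Apoe, the apolipoprotein that carries lipid out of macrophages and is a ligand of Lrp8 (chr7:19696109-19699188, minus strand), had the highest level per kilobase of exon of the 35 genes in every group, from 194 CPM per kb in sham at day 2 to 1461 in MI at day 7. At day 2 Apoe was 444, 509, 358, 416 and 344 CPM in the sham libraries and 416, 545, 444, 328 and 518 CPM in the MI libraries. At day 4 Apoe was 731, 941, 1273, 709 and 744 CPM in the sham libraries and 2099, 1633, 2011, 2035 and 2457 CPM in the MI libraries. At day 7 Apoe was 845, 1034, 851, 747 and 757 CPM in the sham libraries and 3297, 2829, 4374, 3069 and 2044 CPM in the MI libraries. The groups overlapped fully at day 2 (0.027 ± 0.13, adjusted p = 0.879) and not at days 4 and 7, when Apoe was 2.07-fold and 3.23-fold higher (log2 1.05 ± 0.15 and 1.69 ± 0.18; adjusted p = 4.05e-05 and 7.36e-06). Within MI it was higher at day 7 than at day 4 by 0.61 ± 0.16 (adjusted p = 0.0134), a call lost without MI replicate 3 of day 7 (0.45, adjusted p = 0.056).

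Of the liver X receptor genes, 1 passed the test on 1 day. Nr1h3, the form common in macrophages, had values of -0.20 ± 0.11 and 0.034 ± 0.14 at days 2 and 4, neither past the threshold. At day 7 Nr1h3 was 32.3, 31.3, 38.0, 33.7 and 24.1 CPM in the sham libraries and 35.6, 24.0, 16.9, 22.1 and 28.9 CPM in the MI libraries. It was lower there (log2 -0.52 ± 0.18, adjusted p = 0.0257), a call lost without sham replicate 3 or 4, MI replicate 2 or 4, or all lung-marked libraries (-0.41, adjusted p = 0.277). Nr1h2, the form found in most cells, was -0.090 ± 0.076, -0.031 ± 0.080 and -0.17 ± 0.074, none past the threshold. The day 7 value did pass with DESeq2 (-0.18, adjusted p = 0.0465) and, as given above, in 1 fit of all libraries.

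The change of the MI effect between days was tested in 1 fit of all 30 libraries. From day 2 to day 4 it passed for 3 of the 35 genes, against 4.8% of all genes tested (2.51% higher, 2.29% lower): Lrp8 (1.36 ± 0.26), Abca1 (1.17 ± 0.26) and Apoe (1.03 ± 0.23), each with a higher effect at day 4 (adjusted p = 0.00281, 0.00856 and 0.00827). That count was 5 with median-ratio factors, 7 with DESeq2, 8 with voom, 5 without the libraries with lung transcripts and 3 to 6 leaving out 1 library in turn. Calls over all genes with median-ratio factors, DESeq2 and voom and without the lung-marked libraries are given below. Leaving out the lung-marked libraries added Npc2 (0.81, adjusted p = 0.00552) and Abcg1 (0.97, adjusted p = 0.0492). With all libraries these were 0.60 (adjusted p = 0.0518) and 0.79 (adjusted p = 0.104). From day 2 to day 7 the change of the MI effect passed for 9, against 19.2% (10.1% higher, 9.11% lower). The effect was higher at day 7 for Apoe (1.69 ± 0.23, adjusted p = 8.03e-06), Abca1 (1.55 ± 0.26, 0.000153), Lrp8 (1.12 ± 0.27, 0.00368), Abcg1 (1.02 ± 0.29, 0.0131), Npc2 (0.86 ± 0.18, 0.00147), Mylip (0.78 ± 0.16, 0.00104) and Npc1 (0.68 ± 0.21, 0.025). It was lower at day 7 for Hsd17b7 (-0.57 ± 0.20, 0.0436) and Sc5d (-0.50 ± 0.16, 0.0294).

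For Apoe and Lrp8, mean levels of both operations stood as follows. Apoe in MI averaged 450.0 ± 85.9 CPM at day 2 and 3123 ± 844 CPM at day 7 (SD, n = 5), while sham averaged 414 ± 67.1 CPM and 847 ± 115 CPM. Lrp8 in MI averaged 23.8 ± 4.27 CPM and 18.6 ± 5.02 CPM, and the sham level was 5.93 ± 1.33 CPM at day 2 and 2.02 ± 0.460 CPM at day 7. Levels within an operation were not tested between days 2 and 7, which carry different run codes. The macrophage markers also had a higher MI effect at day 7 than at day 2 for 6 of 8 genes (median 1.09), fibroblast markers for 4 of 4, and neutrophil markers for 0 of 4 (median 0.41). Without the libraries with lung transcripts the changes for Lrp8 (1.02, adjusted p = 0.069) and Npc1 (0.47, adjusted p = 0.23) were no longer past the threshold. The change for Soat1 passed without those libraries (1.01, adjusted p = 0.0394) and not with all libraries (0.73 ± 0.29, adjusted p = 0.0764). The Npc1 call was also lost without MI replicate 5 of day 2 (0.62), sham replicate 3 of day 7 (0.60) or MI replicate 3 of day 7 (0.50). The Sc5d call was lost without sham replicate 2 or MI replicate 3 of day 2 or sham replicate 1 or 4 of day 7 (-0.46 to -0.48), and that for Hsd17b7 in 12 of the 20 fits that left out 1 library (-0.59 to -0.46). With voom the Hsd17b7 change was -0.41 (adjusted p = 0.11), and with no filter on low counts that of Npc1 was 0.64 (adjusted p = 0.051). Scaled by library totals, the changes of Hsd17b7 (-0.49, adjusted p = 0.0785) and Sc5d (-0.42, adjusted p = 0.0931) were not past the threshold.

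**Figure D4:**
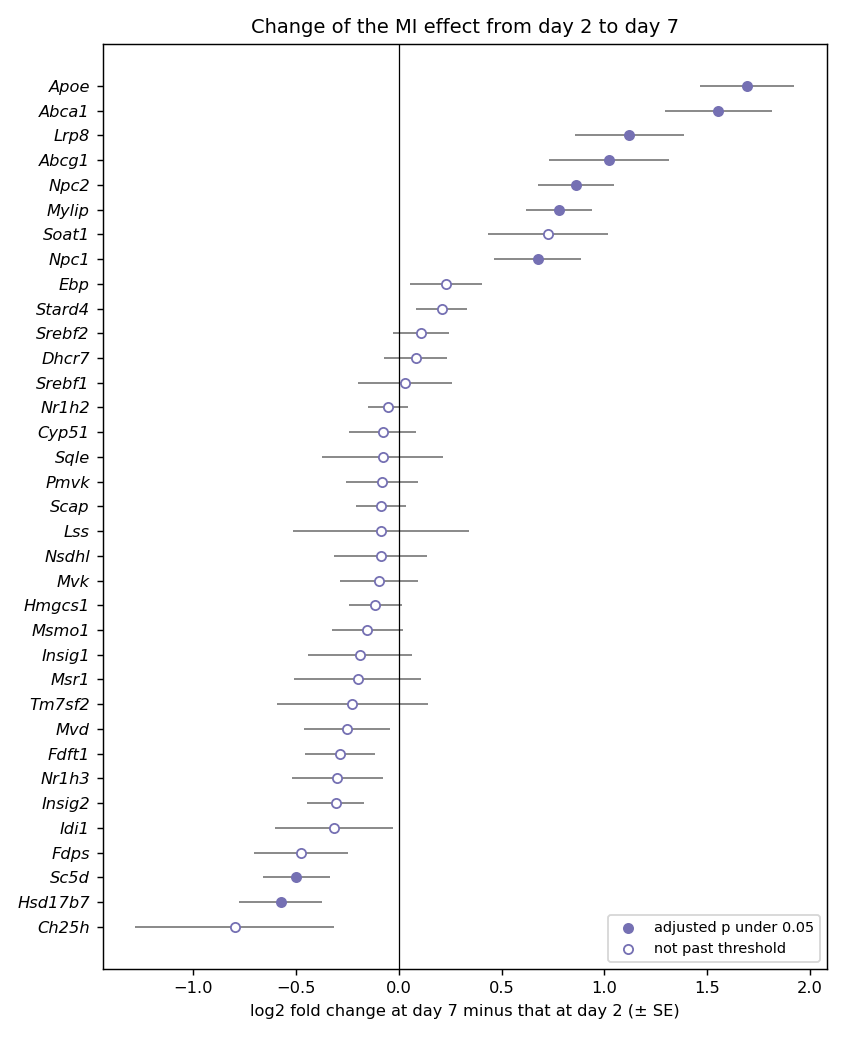
Change of the MI effect from day 2 to day 7. The x axis is the log2 fold change at day 7 minus that at day 2, with its standard error from the fit of 30 libraries, and filled points passed the adjusted p threshold of 0.05; Apoe and Abca1 are at the top, and Hsd17b7 and Sc5d are the filled points below 0.

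From day 4 to day 7, within 1 run code, the MI effect changed past the threshold for 0 of the 35 genes by edgeR. The share of all genes by edgeR was 1.02% (0.702% higher, 0.315% lower), and 4 of the 35 had an unadjusted p under 0.05. DESeq2 gave 0 of the 35, with 224 genes higher and 197 lower of all 15142 it tested. Voom gave 1 of the 35, with 186 genes higher and 103 lower of all 15537. In the sham libraries 0 of 35 differed between these days by edgeR, against 0.122% of all genes (0.0515% higher, 0.0708% lower), with 2 at an unadjusted p under 0.05. By DESeq2 1 of 35 differed in sham, with 49 genes higher and 61 lower of all 9113 it tested. Within MI 4 of 35 differed between these days by edgeR, against 12.6% of all genes (6.26% higher, 6.29% lower): Msr1 and Ch25h were lower and Mylip and Apoe higher at day 7, as given above.

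A wider list of 42 genes of sterol metabolism, of which 41 matched an identifier and 37 or 38 passed the filter by day, went in both directions. At day 2, 10 were higher and 12 lower, at day 4, 12 and 13, and at day 7, 13 and 13, against 46.3%, 52.7% and 55.0% of all genes called in either direction, with medians of 0.034, -0.020 and 0.037. Apoc2, the activator of lipoprotein lipase, had mean levels of 0.596 CPM in sham and 8.04 CPM in MI at day 4, with log2 fold changes of 2.80 ± 0.31, 3.57 ± 0.35 and 3.03 ± 0.46 (adjusted p = 6.08e-06, 1.32e-06 and 0.000102). Olr1, a receptor for oxidised lipoprotein, was higher by 1.73 ± 0.33, 1.98 ± 0.32 and 1.51 ± 0.37. Lipa, the lysosomal enzyme that frees cholesterol from its esters, was higher by 0.31 ± 0.075, 1.08 ± 0.12 and 1.07 ± 0.14, and averaged 50.4 CPM in sham and 119.7 CPM in MI at day 4. Soat2, the second esterifying enzyme, passed the filter at day 2 alone and averaged 0.243 CPM in sham and 2.39 CPM in MI there (3.11 ± 0.43, adjusted p = 3.94e-05). Its sham mean lies within the 0.213 to 0.383 CPM that a count of 0 allows. It thus passed the filter through its MI level, and the size of its fold change is uncertain.

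Cyp7b1, an oxysterol hydroxylase, was -0.0031 ± 0.32 at day 2 (adjusted p = 0.994) and higher at days 4 and 7 by 1.02 ± 0.28 and 1.82 ± 0.26 (adjusted p = 0.00748 and 6.93e-05). Lrp1, a large endocytic receptor for apolipoprotein E, averaged 118 CPM in sham and 462 CPM in MI at day 7 and was higher there by 1.78 ± 0.22 (adjusted p = 2.41e-05), after 0.83 ± 0.35 at day 4 (adjusted p = 0.0727). Vldlr, the receptor for triglyceride-rich lipoprotein in heart muscle and of the same family as Lrp8, was lower on each day, with log2 fold changes of -0.96 ± 0.094, -1.02 ± 0.13 and -1.47 ± 0.17. Rxrg, a partner of nuclear receptors, was lower on each day as well (-0.79 ± 0.093, -1.26 ± 0.14 and -1.53 ± 0.19). The 6 cardiomyocyte markers were lower for 4, 6 and 6 genes on these days (medians -0.67, -0.81 and -0.85), and their part in the values of Vldlr and Rxrg was not tested.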

How the data were processed

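The authors deposited raw counts per Ensembl gene, 1 table per library, made with bcl2fastq 2.20.0 and featureCounts on GRCm38, per the submitters' processing notes. Libraries were directional with paired reads, per the labels' protocols. On the version and strand setting of featureCounts and on the aligner, no information is given in the sources used here. Symbols, positions and exon lengths came from a GRCm38 annotation (GENCODE M21), which names 97.3% of the identifiers and all 35 members.

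MI and sham were compared at each day in a fit of 10 libraries, and changes between days in a fit of all 30, with edgeR 4.0.16 in R 4.3.3 (filterByExpr with a minimum count of 10 and total of 15, TMM, robust quasi-likelihood F test, 2-sided, Benjamini-Hochberg over all genes tested, threshold 0.05), tested on simulated data. The standard error was the log2 fold change over the root of F. CPM divides counts by the library total, and CPM per kb divides them by the union of exons. Every member was named, and from the wider list of 42 genes up to 8 with the largest change among called genes of at least 1 CPM. Members and lists were chosen with earlier results of these data known.

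Alternatives were median-ratio factors, DESeq2 1.42.0, limma 3.58.1 voom with sample weights, no filter, a mean of at least 1 CPM, a replicate block, 1 fit of all libraries, leaving out each library, and leaving out libraries with at least 50 CPM of Sftpc and Scgb1a1. The last 2 were chosen after seeing the data, library totals without TMM factors and joining Fdps, Idi1 and Fdft1 with processed pseudogenes found with blastn 2.17.0. No 2 libraries of a group agreed within sampling noise.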

Additional observations from a re-analysis of the deposited data

Results flagged for a closer look

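In groups of 5 libraries, 14 values lay far from the other 4 of their group by Dixon's test (critical value 0.71), over 210 groups of gene, operation and day; chance gives about 1 in 20. Of these, 5 were in sham replicate 3 of day 4, a library with lung transcripts and the highest fat-cell markers: Lss at 13.2 CPM (next 4.84), Sc5d at 28.3 CPM (next 21.8), Tm7sf2 at 6.12 CPM (next 3.11), Srebf2 at 55.2 CPM (next 46.1) and Abca1 at 83.3 CPM (next 48.2). In sham replicate 2 of day 7, which also had lung transcripts, Soat1 stood at 17.9 CPM (next 9.16) and Abcg1 at 13.8 CPM (next 8.15). At day 2, sham replicate 2 was high in Mvd (7.30 CPM, next 5.06) and Msr1 (17.6 CPM, next 12.7), sham replicate 1 in Lss (4.17 CPM, next 2.97) and MI replicate 1 in Mvd (9.57 CPM, next 7.82). Among the later MI libraries, Stard4 was high in replicate 5 of day 4 (30.001 CPM, next 26.5), Hmgcs1 was high in replicate 4 of day 7, the library with skeletal muscle and fat-cell markers (79.4 CPM, next 60.9), and Fdft1 was low in replicate 3 of day 7 (18.5 CPM, next 27.7).

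The MI effect differed between days by the test of the difference itself, with the errors given above. From day 2 to day 4 the log2 change was 1.36 for Lrp8, 1.17 for Abca1 and 1.03 for Apoe. From day 2 to day 7 it was 1.69 for Apoe, 1.55 for Abca1, 1.12 for Lrp8, 1.02 for Abcg1, 0.86 for Npc2, 0.78 for Mylip, 0.68 for Npc1, -0.50 for Sc5d and -0.57 for Hsd17b7. These days carry different run codes.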

How the results depend on the processing

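The counts of genes higher in MI at the 3 days stayed within 1.5 times the reported ones under every alternative. Leaving out the lung-marked libraries gave 2 lower genes at day 7 and 5 with a changed effect from day 2 to 4. Over all genes, 2705 of 15068 were lower at day 7 in that fit of 2 sham and 4 MI libraries, against 3857 of 14492 with all libraries. For that change median-ratio factors gave 5, DESeq2 7 and voom with sample weights 8 genes, and leaving out 1 library in turn gave 3 to 6. Over all genes the calls higher and lower for that change were 390 and 356 as reported, 351 and 445 with median-ratio factors, 515 and 685 with DESeq2 and 960 and 844 with voom. They were 416 and 308 without the lung-marked libraries. For the change from day 4 to 7, voom gave 1 gene and leaving out 1 library 0 to 2, and for sham between days 4 and 7 DESeq2 gave 1 and leaving out 1 library 0 to 1. The calls over all genes by voom and DESeq2 for these comparisons are given above. Scaling by library totals, an alternative chosen after seeing the data, raised the median of all genes to 0.088, 0.18 and 0.21 at days 2, 4 and 7. With it, 3 and 2 members were lower at days 4 and 7, and 4375 genes of all were higher and 2348 lower at day 2 (3498 and 3225 with TMM factors), 5569 and 2253 at day 4 (3968 and 3629), and 5768 and 2428 at day 7 (4119 and 3857).

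With voom and sample weights, the log2 fold changes that changed sign were Hmgcs1 day 2 -0.025, Dhcr7 day 7 0.088, Tm7sf2 day 7 -0.23. With all 30 libraries in 1 fit, the log2 fold changes that changed sign were Hmgcs1 day 2 -0.0005, Npc1 day 4 -0.0056. With library totals, the log2 fold changes that changed sign were Hmgcs1 day 4 0.045, Hmgcs1 day 7 0.076, Fdps day 7 0.0025, Nsdhl day 7 0.12, Dhcr7 day 2 0.0048, Dhcr7 day 4 0.14, Dhcr7 day 7 0.16, Insig1 day 2 0.058, Insig2 day 2 0.047, Scap day 7 0.17, Nr1h2 day 2 0.0022, Nr1h2 day 4 0.15, Nr1h2 day 7 0.029. Without the libraries with lung transcripts, the log2 fold changes that changed sign were Fdps day 7 0.092, Cyp51 day 7 -0.084, Nsdhl day 7 0.088, Dhcr7 day 4 0.052, Insig1 day 7 0.0038, Scap day 4 -0.013, Npc1 day 4 -0.036. With median-ratio factors, the log2 fold change that changed sign was Npc1 day 4 -0.013. With DESeq2, the log2 fold change that changed sign was Npc1 day 4 -0.014. Leaving out 1 library in turn also moved these across 0: Hmgcs1 day 2 -0.025 to 0.055, Mvk day 7 -0.033 to 0.14, Lss day 4 -0.11 to 0.63, Cyp51 day 7 -0.026 to 0.10, Nsdhl day 2 -0.030 to 0.10, Dhcr7 day 4 -0.091 to 0.012. The same happened for Dhcr7 day 7 -0.11 to 0.059, Tm7sf2 day 4 -0.029 to 0.28, Tm7sf2 day 7 -0.089 to 0.17, Insig1 day 2 -0.14 to 0.024, Insig2 day 2 -0.080 to 0.0042, Scap day 4 -0.015 to 0.073. The same happened for Scap day 7 -0.081 to 0.015, Npc1 day 4 -0.067 to 0.13, Apoe day 2 -0.045 to 0.11, Nr1h3 day 4 -0.049 to 0.12. Of the results that changed sign, 4 passed the threshold under some alternative, each on 1 side of 0: Lss at day 4 (0.63 and 0.81), Hmgcs1 and Insig1 at day 7 (below) and Nr1h2 at day 7 (-0.18 with DESeq2, -0.16 in 1 fit of all libraries). Calls were gained without 1 library for Insig1 (-0.54 at day 4, -0.37 at day 7), Insig2 (-0.25 and -0.24 at day 4), Ebp (0.33 at day 4, 0.36 at day 7), Hmgcs1 (-0.21 at day 7) and Pmvk (-0.35 at day 7), and with voom for Pmvk (-0.32) and Srebf2 (0.28) at day 7 and Ebp (0.29) and Insig2 (-0.22) at day 4. The cause was not tested, except that leaving libraries out gives fewer samples.

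The replicate numbers were not taken as pairs: the correlation of deviations over 15 pairs with 1 number ran from -0.22 to 0.24, 6 were over 0.1 and 4 libraries correlated best with their own number. With the replicate number as a block, 12 genes were higher and 5 lower at day 2, 12 and 6 at day 4, and 11 and 5 at day 7, and 4, 0 and 8 had a changed effect from day 2 to 4, 4 to 7 and 2 to 7. Over all genes the block gave 3632 higher and 3339 lower of 14524 at day 2, 3861 and 3489 of 14410 at day 4, and 3805 and 3507 of 14492 at day 7. For the changes it gave 391 and 336, 76 and 32, and 1528 and 1383 of 15537. The block ended the call for the Hsd17b7 change from day 2 to 7 (-0.57, adjusted p = 0.0505) and added Abcg1 at day 2 (0.42, adjusted p = 0.022). Between days 4 and 7, 0 members changed in sham and 4 in MI with the block. Over all genes it gave 5 higher and 8 lower in sham and 916 and 1010 in MI. Depth limits Lss, Tm7sf2 and Idi1, with group means of at most 7.69 CPM, and Ch25h in sham, with 1 count in 1 library. It also limits Fdps, with group means of at most 7.78 CPM. Lrp8 in sham held 12 to 24 counts per library at days 4 and 7.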
